A study of Homo sapiens with 12 samples.

Results

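K562 is an established human cell line from a chronic myelogenous leukaemia; it carries the BCR-ABL1 fusion and expresses embryonic and fetal globins. The comparison described here set K562 cells given 2 mM alpha-ketobutyrate (AKB) for 24 h against K562 cells given 2 mM pyruvate for 24 h, with 4 RNA-seq libraries in each group. These 8 libraries were chosen by their treatment labels out of 12 in the series; the other 4 came from untreated K562 cells and were used to estimate the spread and to place the genes named. All cells of all 3 groups were grown in RPMI medium with fetal bovine serum and glutamine, and polyadenylated RNA was sequenced. The labels number the replicates 1 to 4 in each group but do not say whether they came from separate cultures, so the p-values measure the spread between these libraries, which may be technical. Of 17786 gene identifiers, 13598 passed the filter on low counts and were tested.

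AKB and pyruvate are 2-oxo acids, and AKB is the next longer homologue of pyruvate. Lactate dehydrogenase reduces pyruvate to lactate and AKB to 2-hydroxybutyrate, and both reactions turn NADH back into NAD+. Pyruvate is otherwise oxidised to acetyl-CoA or carboxylated to oxaloacetate, whereas AKB, which cells make from threonine and methionine, is oxidised to propionyl-CoA. A comparison at equal dose therefore asks which transcripts distinguish the 2 acids, and which do not.

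The library totals ran from 15353200 to 21301073 estimated counts. Pyruvate replicates 3 and 4 stood apart from the other 10 libraries: each 10 points of GC content in the transcript went with a log2 level higher by 0.328 and by 0.352, against slopes between -0.152 and 0.0145 in the other 10, and they lay far from those 10 along the first principal component, which held 36.6% of the variance. Every difference was therefore read from 2 checks. One left out pyruvate replicates 3 and 4, and the other kept all 12 libraries and gave each an offset for GC content. A gene was counted as a held difference where its adjusted p was below 0.05 in the same direction in both. Of 16 marker genes of K562 cells, such as GATA1, TAL1, TFRC and the globins, 15 had a counts-per-million value (CPM) of 1 or more in all 12 libraries. KIT was lower, at 0.56 to 1.70 CPM. Of 23 markers of other blood, stromal and epithelial cells, 17 matched an identifier and 8 were at 1 CPM or more in all 12 libraries, keratins and EPCAM among them. Their summed level was 633 to 689 CPM with AKB and 634 to 833 CPM with pyruvate, and the defining markers CD3E (T cells), CD79A (B cells), NKG7 (cytotoxic cells) and ALB (liver) were at or near 0. Of the 10 of these markers that were tested, 2 (20%) were nevertheless held higher with AKB, against 2.21% of all genes tested. LYZ, the lysozyme gene of myeloid cells, was at 51.8, 41.5, 44.7 and 51 CPM with AKB and 30.9, 36.3, 28.4 and 28.1 CPM with pyruvate. COL1A1, a collagen chain of stromal cells, was at 1.93, 2.04, 2.52 and 1.73 CPM against 1.01, 0.722, 1.41 and 1.63 CPM, a log2 difference of 1.24 ± 0.30 without pyruvate replicates 3 and 4 (adjusted p = 0.0469). Neither overlapped between the groups, and their part in the results below was not tested. In bulk libraries, fewer cells expressing a gene and less of its RNA per cell cannot be told apart.

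**Figure D1:**
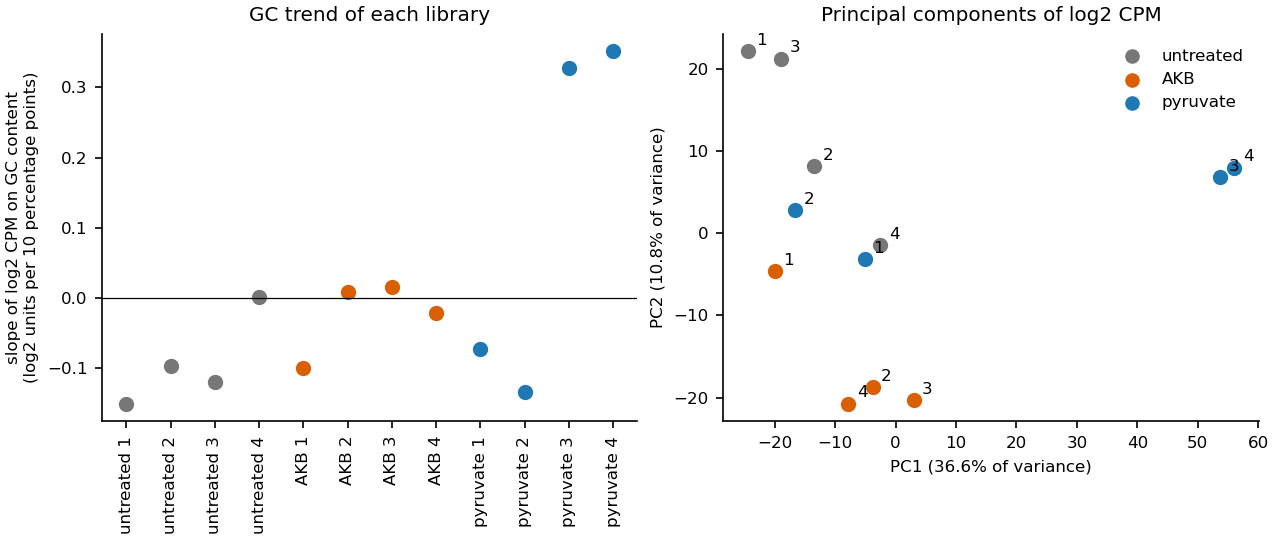
Left, the slope of log2 CPM on transcript GC content in each of the 12 libraries, in log2 units per 10 percentage points. Right, the first 2 principal components of log2 CPM, with replicate numbers beside the points; pyruvate replicates 3 and 4, with slopes of 0.328 and 0.352, lie apart from the other 10 libraries in both panels.

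Genes differed between AKB and pyruvate in both directions. In the fit to all 12 libraries without an offset, 264 genes were higher with AKB (1.94% of 13598) and 162 were lower (1.19%). With the GC-content offset 993 were higher (7.3%) and 1001 lower (7.36%), and without pyruvate replicates 3 and 4 351 were higher (2.52% of 13941) and 257 lower (1.84%), 4.36% together. In that fit 4.86% of the genes were above untreated cells with AKB and 4.31% below them, against 0.151% and 0.56% with pyruvate, which then had 2 libraries to the 4 of AKB. The held differences were 308 genes higher with AKB (2.21%) and 161 lower (1.15%), 3.36% of the genes tested. Without pyruvate replicates 3 and 4, DESeq2 called 510 higher and 543 lower (8.6% of 12238) where edgeR called 351 and 257. The median fold of the held differences was 1.41 in the higher and 1.197 in the lower group; their median level over the 12 libraries was 22.4 CPM and 135.9 CPM, and smaller folds can be called at higher counts. Of the higher genes 127 differed by 1.5-fold or more and 41 by 2-fold or more, against 1 of the lower genes, an identifier without a symbol. All 4 AKB libraries lay outside the range of all 4 pyruvate libraries for 205 of the higher and 76 of the lower held genes; over all genes tested this was so for 7.01% upward and 4.45% downward.

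These counts rested on few pyruvate libraries. Without pyruvate replicate 2, where 1 pyruvate library remained in the fit that leaves out replicates 3 and 4, the held differences were 27 higher and 6 lower; the lone library is then assumed to vary like the other groups. Without pyruvate replicate 1 they were 145 and 161, and without 1 AKB library 159 to 213 and 67 to 100. Held genes that stayed called in all 6 fits leaving out a further library numbered 24 higher and 4 lower. The 10 genes named in this report that were among them are APOE, CA1, ELOVL6, ENO2, HBE1, IDH2, LAPTM5, PRG2, SYNGR1 and ODC1. The higher held genes had a median transcript GC content of 55.1%, the lower ones 43.7% and all genes tested 48.1%. In the fit without pyruvate replicates 3 and 4, the difference between AKB and pyruvate still rose by 0.09 on the log2 scale per 10 points of GC content. When the offset was applied in that fit too, 255 of the higher and 133 of the lower held genes stayed called. They included 61 of the 66 held genes named by the rules given below. Held list members named after their values were seen are not in the 66. In the authors' deposited table for the same comparison, 544 genes had an adjusted p below 0.05 with a positive log2 fold change and 722 with a negative one, out of 12604; these included 188 of the held higher and 71 of the held lower genes.

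**Figure D2:**
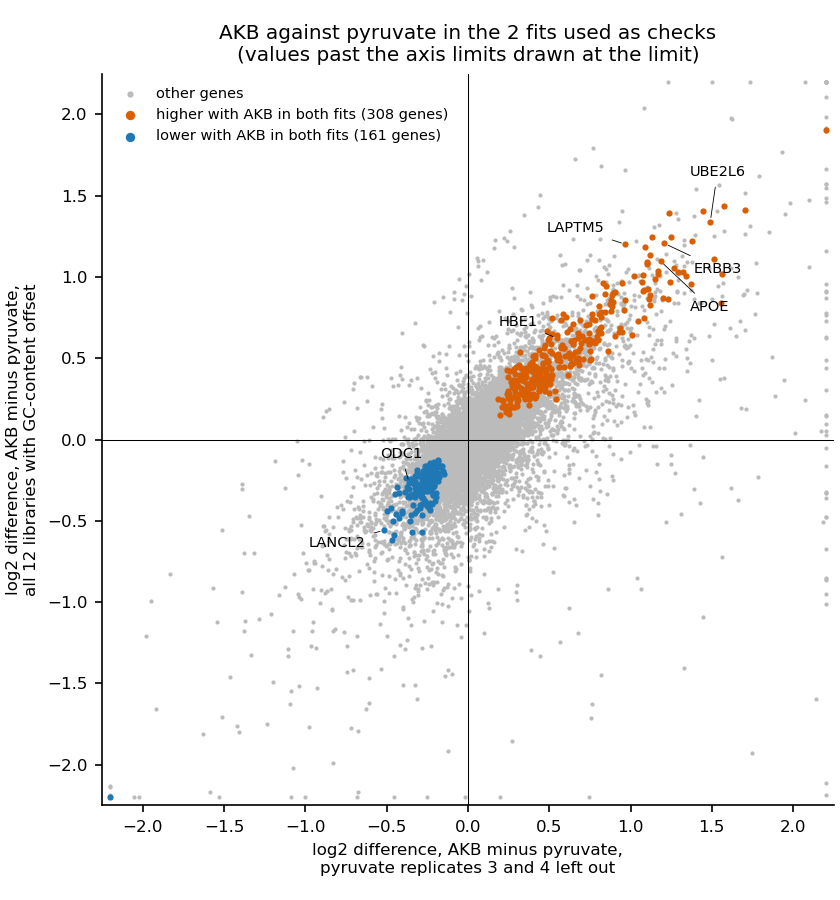
Each point is 1 gene: its log2 difference, AKB minus pyruvate, without pyruvate replicates 3 and 4 (horizontal axis) and with a GC-content offset over all 12 libraries (vertical axis). The 308 held higher genes include 41 that differ by 2-fold or more on the horizontal axis, whereas all but 1 of the 161 held lower genes differ by less than 1.5-fold there.

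Of the 426 calls made over all 12 libraries (3.13% of the genes tested), 207 passed both checks: 152 of 264 higher and 55 of 162 lower genes. LSM7, a subunit of rings that bind mRNA or U6 RNA, was at 16.4, 23.5, 24.7 and 27.4 CPM with AKB and 29.9, 31.5, 103 and 103 CPM with pyruvate. Its level in pyruvate replicates 3 and 4 was far above that in replicates 1 and 2, which lay just above the AKB libraries. It was called lower over all libraries (adjusted p = 0.049, edgeR quasi-likelihood test), but the adjusted p was 0.202 without those 2 libraries. CANX, the endoplasmic reticulum chaperone calnexin, had the same shape, with 7.14, 9.26, 11.1 and 13.8 CPM against 14.98, 16.9, 43.2 and 37.9 CPM, and so had SBNO2, a nuclear co-regulator, with 12.99, 16.98, 22.8 and 21.7 CPM against 31.7, 33.9, 68.5 and 70.7 CPM. SBNO2 did not pass over all libraries (adjusted p = 0.0572). Without pyruvate replicates 3 and 4 the adjusted p was 0.202 for CANX and 0.244 for SBNO2. The other largest lower calls that were not held were VPS28, a subunit of the ESCRT-I sorting complex, and ENSG00000283515, ENSG00000276053 and ENSG00000273833, which have no symbol here. The largest higher calls that were not held, SULT1A4, MAPT, PURG, TM6SF1 and RTL9, had adjusted p-values of 0.061 to 0.135 without pyruvate replicates 3 and 4. In all 5 no pyruvate library exceeded 2 CPM, and the log2 difference in that fit was 1.14 to 1.93. SULT1A4 has near-identical copies between which reads can be split.

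APOE, LAPTM5, PRG2 and SYNGR1 were 1.96 to 2.40 times higher with AKB and stayed called in all 6 fits that left out a further library. APOE, the lipoprotein apolipoprotein E (ENSG00000130203, chr19:44905754-44909393 in the GRCh38 annotation of GENCODE 29), was at 35.9, 41.6, 40.5 and 36 CPM in AKB replicates 1 to 4 and at 17.8, 16.1, 27.9 and 26.2 CPM in pyruvate replicates 1 to 4. The groups did not overlap. That was a condition for the 12 largest rises, which include APOE, PRG2 and SYNGR1, so it adds no support for them. Pyruvate replicates 3 and 4 were the nearest to AKB in APOE. The log2 difference without those 2 libraries was 1.19 ± 0.11 (SE; adjusted p = 0.00144), or 2.27-fold, and the untreated cells, at 13.8 to 17.3 CPM, were close to pyruvate replicates 1 and 2. LAPTM5, a protein of the lysosomal membrane in leukocytes (chr1:30732469-30757820), was at 36.1, 35.5, 32.3 and 32.7 CPM with AKB and 17.1, 17.7, 13.5 and 12.04 CPM with pyruvate. Here all 4 pyruvate libraries were far below the AKB libraries and replicates 3 and 4 were the lowest; the log2 difference was 0.97 ± 0.09 (adjusted p = 0.00144). PRG2, the eosinophil granule major basic protein (chr11:57386794-57390657), was at 28.5, 33.4, 33.1 and 32.9 CPM against 13.7, 15.99, 18.6 and 14.3 CPM, a log2 difference of 1.10 ± 0.12 (adjusted p = 0.00253). SYNGR1, a vesicle membrane protein of the synaptogyrin family, was at 16.7, 15.8, 17.2 and 16.4 CPM against 7.76, 5.95, 10.96 and 11.2 CPM. Its AKB libraries lay within 2 CPM of each other and above every pyruvate library, with a log2 difference of 1.265 ± 0.12 (adjusted p = 0.00144).

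Other genes among the 12 largest rises were expressed at lower levels and were less secure. ERBB3, the neuregulin receptor HER3 (chr12:56076799-56103505), was at 6.04, 8.46, 8.84 and 9.51 CPM with AKB and 3.79, 3.31, 3.38 and 4.20 CPM with pyruvate, with no overlap. Its log2 difference was 1.21 ± 0.21 (adjusted p = 0.0135). CORO1A, an actin-binding coronin of leukocytes, was at 7.14, 6.11, 6.73 and 6.54 CPM against 2.90, 3.19, 4.09 and 3.59 CPM, with a log2 difference of 1.12 ± 0.15 (adjusted p = 0.00577). SPINT1, an inhibitor of serine proteases at the cell surface, was at 9.07, 7.10, 8.02 and 7.29 CPM against 3.55, 3.07, 4.55 and 3.64 CPM (adjusted p = 0.0115). UBE2L6, the conjugating enzyme for the interferon-induced modifier ISG15, was at 9.001, 6.36, 9.84 and 7.72 CPM against 3.14, 2.71, 4.60 and 3.83 CPM (adjusted p = 0.00621). In each of these 4 genes the lowest AKB library was above the highest pyruvate library, which was a condition for the 12 largest rises. PAQR8, a membrane progestin receptor, SLC2A4, the insulin-regulated glucose transporter, SLC45A3, a transporter of the sucrose carrier family, and FCGR2C, an Fc receptor with near-identical copies, were 2.17 to 2.60 times higher in the same fit. GGT1, gamma-glutamyl transferase, had the largest log2 difference, 1.56 ± 0.38, but at 6.30, 7.23, 6.73 and 6.54 CPM with AKB and 2.55, 1.98, 5.45 and 5.65 CPM with pyruvate it was nearly level with pyruvate replicates 3 and 4. It has near-identical copies and kept its call in 0 of the 6 fits that left out a further library. Without pyruvate replicate 2 the adjusted p of the other 8 genes in this paragraph lay between 0.0575 and 0.255, with SLC45A3 the highest.

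A list of 13 surface and signalling genes, picked earlier because they rose with AKB against untreated cells in these same libraries, had 12 held higher and 0 held lower of 13 tested, with a median log2 difference of 1.12 against 0.0049 over all genes tested. Because the AKB libraries that chose the list also enter this comparison, the count is no independent evidence of direction. CD24, a small mucin-like surface protein, was at 12.9, 11.5, 11.6 and 14.3 CPM with AKB against 6.28, 7.82, 5.86 and 5.09 CPM with pyruvate. EFNA1, a membrane-bound ephrin ligand, was at 8.04, 5.50, 5.68 and 5.43 CPM against 3.49, 2.28, 2.78 and 3.31 CPM, and TRANK1, a large ankyrin-repeat protein, at 11.7, 8.89, 9.25 and 11.7 CPM against 4.15, 6.07, 5 and 5.51 CPM. None of these 3 overlapped between the groups. The member that was not held was MYL9, a myosin light chain of contractile cells and platelets, at 1.09, 1.54, 1.82 and 1.05 CPM against 0.651, 0.301, 0.657 and 0.980 CPM (adjusted p = 0.0787). Of the 13, 4 were held without pyruvate replicate 2.

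**Figure D3:**
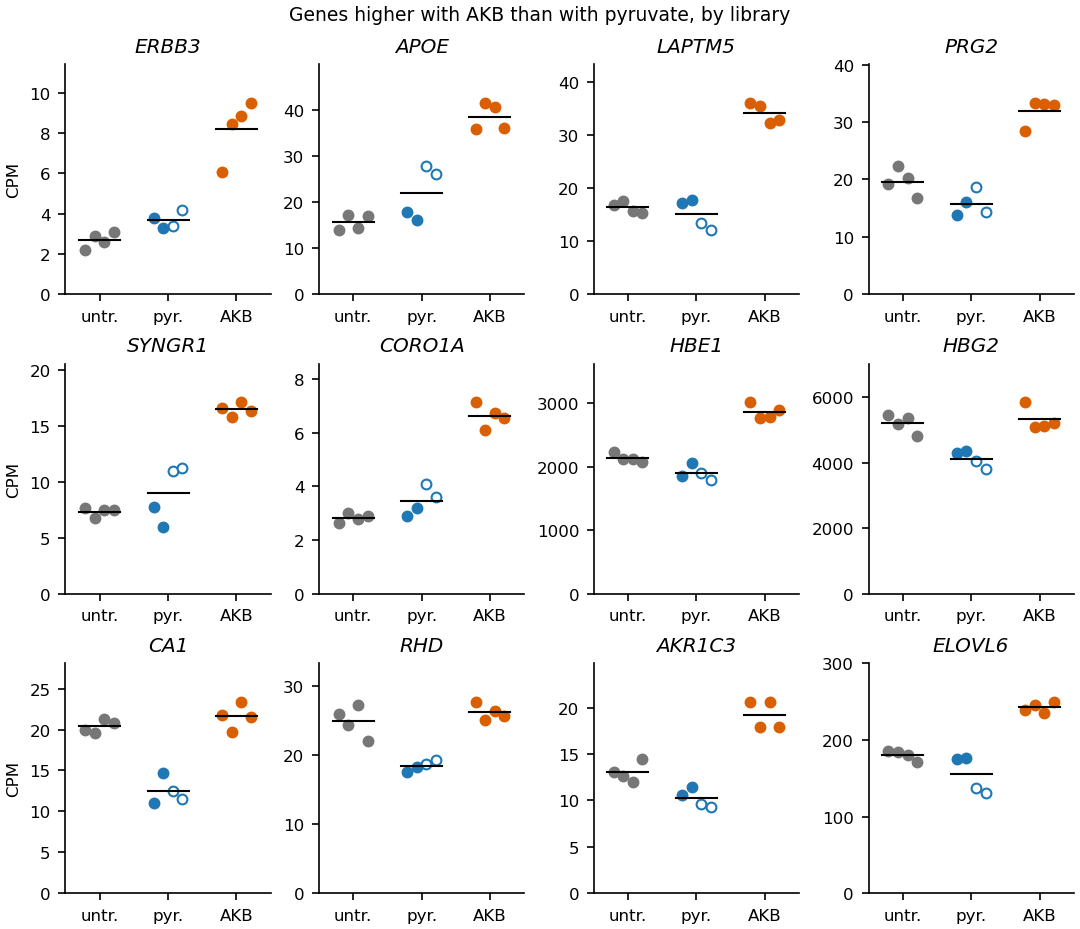
CPM of 12 genes that were held higher with AKB, in each of the 4 untreated (grey), 4 pyruvate (blue) and 4 AKB (orange) libraries; open circles are pyruvate replicates 3 and 4 and bars are group means. In every panel the AKB libraries lie above all pyruvate libraries; for CA1, RHD and HBG2 the untreated libraries lie with AKB, and for the other genes with or nearer to pyruvate.

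Haemoglobin switches during development from embryonic to fetal to adult chains, and K562 cells express the embryonic epsilon and zeta and the fetal gamma chains. Some globin transcripts, epsilon first among them, were higher with AKB than with pyruvate. HBE1 (ENSG00000213931), the embryonic beta-type chain, was at 3021, 2765, 2782 and 2889 CPM with AKB, 1852, 2068, 1898 and 1799 CPM with pyruvate and 2072 to 2239.9 CPM in untreated cells. The lowest AKB library was above every pyruvate and untreated library, and all 4 pyruvate libraries lay close together. The log2 difference was 0.55 ± 0.05 (adjusted p = 0.00146), and against untreated cells AKB differed by 0.42 (adjusted p = 0.000373) and pyruvate by -0.13 (adjusted p = 0.322); both contrasts share the untreated libraries. Of 10 haemoglobin genes tested, 4 were held higher and 0 lower (40% held, against 3.36% of all genes tested). Their median log2 difference was 0.23. Without pyruvate replicates 3 and 4, 8 of the 10 estimates were above 0 and 2 below, HBD at -0.23 and HBB at -0.14, neither held. AKB and pyruvate libraries did not overlap for 4 of the 10 upward and 1 downward, against 7.01% and 4.45% of all genes tested. HBG2, a fetal gamma chain, was at 5844, 5078, 5129 and 5206 CPM against 4280.3, 4345, 4033 and 3808 CPM, a log2 difference of 0.30 ± 0.06 (adjusted p = 0.0271). Its AKB libraries overlapped untreated cells, at 4805 to 5456 CPM. HBG1, its near-identical copy, was at 3367, 2839, 2829 and 2852 CPM against 2530.1, 2731, 2473 and 2347 CPM and did not pass (adjusted p = 0.246); reads can be split between the copies, and the annotated span of HBE1 (chr11:5268345-5505652) overlaps HBG2.

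Other globins depended on pyruvate replicates 3 and 4. HBZ, the embryonic alpha-type chain, was at 714, 815, 903 and 745 CPM with AKB and 599.9, 492, 1116 and 1025 CPM with pyruvate, so that the AKB libraries lay between the 2 pairs of pyruvate libraries. HBQ1, the theta chain, had the same shape, at 21.02, 23.6, 23.3 and 22.1 CPM against 15.9, 16.96, 25.7 and 25.1 CPM. Both passed the 2 checks, but the adjusted p over all libraries was 0.95 for HBZ and 0.683 for HBQ1, and that of HBQ1 was 0.329 when the offset was also applied without replicates 3 and 4. HBA1, an adult alpha chain, was at 1677, 1647, 1634 and 1634 CPM against 1403, 1438, 1564 and 1418 CPM and passed without replicates 3 and 4 (adjusted p = 0.0113) but not with the offset (adjusted p = 0.204). HBA2, its near-identical copy, was at 232, 151, 510.1 and 504 CPM with pyruvate and 131, 198, 264 and 204 CPM with AKB (adjusted p = 0.934). HBE1 was the 1 globin gene still held without pyruvate replicate 2, and the adjusted p of HBG2 was 0.161.

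Red cell genes showed no common direction. Of 27 genes of the red cell membrane, blood groups and carbonic anhydrases, 4 were held higher and 1 lower. That is 18.5% held, against 3.36% of all genes tested, and the median log2 difference was 0.01. CA1, a carbonic anhydrase of red cells, was at 21.8, 19.8, 23.4 and 21.5 CPM with AKB, 11.1, 14.7, 12.5 and 11.5 CPM with pyruvate and 19.6 to 21.3 CPM in untreated cells. Here the pyruvate group stood below both others: without replicates 3 and 4, pyruvate differed from untreated cells by -0.66 on the log2 scale (adjusted p = 0.0269) and AKB by 0.08 (adjusted p = 0.608). RHD, which carries the D antigen, was at 27.8, 25.1, 26.4 and 25.7 CPM against 17.6, 18.2, 18.8 and 19.4 CPM, with untreated cells at 22.02 to 27.3 CPM. Its close copy RHCE was at 25.7, 21.2, 19.9 and 19.5 CPM against 14.1, 14.9, 13.6 and 11.6 CPM, and reads can be split between the pair. SLC4A1, the band 3 anion exchanger, was at 12.5, 14.9, 13.8 and 12.9 CPM against 8.23, 9.32, 12.1 and 11.2 CPM. SPTB, the red cell beta spectrin, was the lower gene, at 183, 199.5, 173 and 198 CPM with AKB and 209.9, 251, 271 and 283 CPM with pyruvate. Of these 5, only CA1 was held without pyruvate replicate 2.

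Of 25 genes of haem synthesis and iron handling, 3 were held higher and 0 lower (12% held, against 3.36% of all genes tested). Their median log2 difference was 0.13. SLC25A37, the mitochondrial iron importer mitoferrin 1, was at 357, 368, 352 and 369.7 CPM against 300.5, 323, 299 and 316 CPM, and UROS, uroporphyrinogen III synthase, at 71.5, 76.7, 75.1 and 67.7 CPM against 61.7, 59.05, 65.4 and 60.98 CPM, without overlap in either. FTL, ferritin light chain, overlapped, at 1444, 1472, 1567 and 1413 CPM against 1325, 1175, 1609 and 1572 CPM. ALAS2, the red cell enzyme that starts haem synthesis, was at 73.8, 78.5, 73.1 and 72.1 CPM against 55.7, 65.96, 64.1 and 62.9 CPM, without overlap, but its adjusted p was 0.0566 without pyruvate replicates 3 and 4. Among 16 megakaryocyte genes tested, 2 were held higher and 0 lower (12.5% held, against the same 3.36%). They were ITGA2B, the platelet integrin alpha-IIb, at 8.36, 6.55, 7.55 and 6.79 CPM against 4.62, 3.97, 4.85 and 5.83 CPM, and TUBB1, the platelet beta tubulin, at 42.2, 44.2, 49.6 and 44.6 CPM against 33.04, 38.5, 36.8 and 36.3 CPM. Neither the haem and iron genes nor these 2 kept a held call without pyruvate replicate 2.

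MYC drives transcription of genes for ribosome assembly, and some of those listed were lower with AKB than with pyruvate. Of 39 genes listed for MYC activity and ribosome biogenesis, 10 were held lower and 0 higher (25.6% held, against 3.36% of all genes tested). Of the 39 estimates, 38 were below 0, as were 6847 of all 13941. The median log2 difference was -0.22, against 0.0049 over all genes tested, and 38 of the 39 intervals lay inside 1.5-fold, so the differences were small. Over all 12 libraries 12 of the 39 were called lower, against 1.19% of all genes tested. The 10 held genes were ODC1, NPM1, UTP20, DDX21, RRP9, DDX18, UTP4, NCL, NOP2 and WDR43.

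The E-box CACGTG, the letters MYC and its partner MAX bind, reads the same on both strands and was looked for in RefSeq promoters (GRCh38.p14) from 250 bases before to 50 after each gene start. It was in the promoter of 16 of the 31 listed genes with a promoter in that table (51.6%), including 7 of 9 held lower, of 12.7% of the tested genes and of 8.77% of all genes in the table. The list holds well-known MYC target genes, so the share describes how the list was made as much as these data. It was in 21.9% of all held lower and 9.91% of all held higher genes with a promoter. Among the listed held genes with the motif, ODC1 had the smallest adjusted p, and UTP20 and DDX21 were tied for the next. ODC1 and UTP20 are shown 5′ to 3′ from 250 bases before to 30 after the start, with the E-box in capitals. ODC1 lies at chr2:10447983-10448262 on the minus strand and UTP20 at chr12:101279855-101280134 on the plus strand.
ODC1: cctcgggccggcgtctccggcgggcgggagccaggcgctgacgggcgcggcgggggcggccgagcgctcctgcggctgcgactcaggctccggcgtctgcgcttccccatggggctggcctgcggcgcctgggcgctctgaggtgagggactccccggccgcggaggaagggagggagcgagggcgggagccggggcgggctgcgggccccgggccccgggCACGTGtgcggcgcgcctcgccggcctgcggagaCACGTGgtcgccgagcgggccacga
UTP20: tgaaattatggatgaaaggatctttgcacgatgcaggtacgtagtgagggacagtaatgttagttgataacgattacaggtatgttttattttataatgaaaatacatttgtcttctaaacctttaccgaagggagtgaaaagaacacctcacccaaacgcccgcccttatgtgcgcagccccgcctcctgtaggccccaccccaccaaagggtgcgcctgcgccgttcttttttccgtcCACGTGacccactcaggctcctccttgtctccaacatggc
In ODC1 the matches begin 29 bases before the start and 5 bases after it, and in UTP20 the match begins 10 bases before it. A match is a run of letters and does not show that a factor binds there.

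ODC1, ornithine decarboxylase, the enzyme that starts polyamine synthesis, was the firmest of the lower genes. It was at 557, 513, 541 and 531 CPM with AKB, 682, 693, 633 and 628 CPM with pyruvate and 643 to 675 CPM in untreated cells. Every AKB library was below every library of the other 2 groups, and the log2 difference was -0.36 ± 0.04 (adjusted p = 0.00271). It was called over all libraries (adjusted p = 0.0109) and in all 6 fits that left out a further library. RRP9, a protein of the small nucleolar particle that processes ribosomal RNA, was at 29.5, 29.5, 31.6 and 30.6 CPM against 33.8, 44.2, 45.3 and 48.4 CPM, also without overlap. NPM1, the nucleolar chaperone nucleophosmin, was at 1769.6, 1789, 1960.3 and 1862 CPM against 2305, 2320.3, 1989.7 and 1908 CPM, and DDX21, a nucleolar RNA helicase, at 911, 869, 868 and 887 CPM against 1064, 1056, 811 and 806 CPM. In NPM1 and DDX21 the AKB libraries were below pyruvate replicates 1 and 2 but overlapped or lay above replicates 3 and 4. UTP20, a component of the small-subunit processome, was at 123, 125, 111 and 122 CPM against 161, 164, 106 and 119 CPM, and the AKB libraries overlapped pyruvate replicates 3 and 4. Without replicates 3 and 4 the log2 differences were -0.33 ± 0.04 for NPM1, -0.26 ± 0.04 for DDX21 and -0.44 ± 0.07 for UTP20; over all libraries their adjusted p-values were 0.0856, 0.594 and 0.366. Without pyruvate replicate 2, 1 of the 10 genes, ODC1, was held, the median of the list was -0.18, and the adjusted p of NPM1, DDX21 and UTP20 was 0.054, 0.0731 and 0.0918.

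Untreated cells place these genes differently. ODC1, DDX21 and UTP20 were lower with AKB than in untreated cells, by -0.29, -0.34 and -0.48 on the log2 scale (adjusted p = 0.000636, 0.000349 and 0.000844), while pyruvate replicates 1 and 2 differed from untreated cells by 0.07, -0.07 and -0.04 (adjusted p = 0.502, 0.467 and 0.854). NPM1 was lower than untreated by -0.15 with AKB (adjusted p = 0.0221) and differed by 0.17 with pyruvate (adjusted p = 0.102).

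Some chaperone genes were also lower with AKB than with pyruvate. Heat shock factor 1 induces chaperones when proteins misfold, by binding inverted repeats called heat shock elements. Of 22 heat shock proteins and cytosolic chaperones tested, 6 were held lower and 0 higher (27.3% held, against 3.36% of all genes tested). The median log2 difference was -0.17, and over all 12 libraries 2 were called lower. The 6 held were HSPA8, DNAJA1, HSP90AB1 and HSPH1, and the mitochondrial chaperonin pair HSPD1 and HSPE1. A strict form of the element, TTC, GAA and TTC in a row with NN between each, on either strand, was in the promoter of 7 of 19 listed genes with a RefSeq promoter and of 4 of these 6, against 0.485% of tested genes and 0.608% of all genes in the table; here too the list holds genes known for such elements. The promoters of HSPA8 (chr11:123062107-123062386, minus strand) and DNAJA1 (chr9:33025023-33025302, plus strand), the 2 with the smallest adjusted p, are shown over the same window with the element in capitals.
HSPA8: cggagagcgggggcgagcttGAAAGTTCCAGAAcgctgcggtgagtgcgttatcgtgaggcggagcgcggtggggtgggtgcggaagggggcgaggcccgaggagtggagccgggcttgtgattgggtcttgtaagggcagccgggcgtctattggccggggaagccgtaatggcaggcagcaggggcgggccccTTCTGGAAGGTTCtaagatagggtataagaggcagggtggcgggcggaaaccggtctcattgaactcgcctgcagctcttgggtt
DNAJA1: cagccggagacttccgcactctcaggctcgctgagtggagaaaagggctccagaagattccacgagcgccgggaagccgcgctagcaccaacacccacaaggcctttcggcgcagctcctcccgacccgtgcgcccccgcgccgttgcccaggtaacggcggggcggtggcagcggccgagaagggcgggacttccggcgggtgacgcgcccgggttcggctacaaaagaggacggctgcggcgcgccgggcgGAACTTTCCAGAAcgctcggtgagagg
The HSPA8 matches begin 230 and 55 bases before the start, and the DNAJA1 match begins 3 bases after it.

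HSPA8, the constitutive HSP70, was at 2309.9, 2271, 2281 and 2498 CPM with AKB, 2872, 3227, 2367 and 2350.1 CPM with pyruvate and 2478 to 2562 CPM in untreated cells. Pyruvate replicates 1 and 2 were above all AKB and untreated libraries, whereas replicates 3 and 4 fell among the AKB libraries. The log2 difference without replicates 3 and 4 was -0.38 ± 0.05 (adjusted p = 0.00577), and with the offset over all libraries -0.23 (adjusted p = 0.0305). Against untreated cells pyruvate replicates 1 and 2 were higher by 0.28 (adjusted p = 0.0421), and AKB differed by -0.11 (adjusted p = 0.142). DNAJA1, an HSP40 co-chaperone, was at 289, 267, 292 and 292 CPM against 337, 370.1, 291 and 274 CPM. HSP90AB1, the constitutive HSP90, was at 4058, 4090.1, 4194 and 4146 CPM against 4581, 4789, 4342 and 4190.3 CPM. HSPH1, an HSP110 exchange factor, was at 198, 205, 215 and 205 CPM against 242, 246, 176 and 176 CPM. In these 3 genes, as in HSPA8, pyruvate replicates 1 and 2 lay above every AKB and untreated library. Pyruvate replicates 3 and 4 lay below all AKB libraries in HSPH1, and replicate 3 lay above them in HSP90AB1. HSPE1, the mitochondrial co-chaperonin, was an exception, at 105, 101, 114 and 111 CPM with AKB and 127, 148, 174 and 169 CPM with pyruvate, with all 4 pyruvate libraries above all 4 AKB libraries. HSPD1 was at 870, 813, 875 and 845 CPM with AKB and 947, 973, 854 and 836 CPM with pyruvate. Its pyruvate replicates 1 and 2 lay above AKB but among the untreated libraries, at 932 to 991 CPM. Over all libraries HSPE1 was called (adjusted p = 0.014) and HSPA8 was not (adjusted p = 0.171). Of the 22 genes, 0 were held without pyruvate replicate 2 and the adjusted p of HSPA8 was 0.0575.

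**Figure D4:**
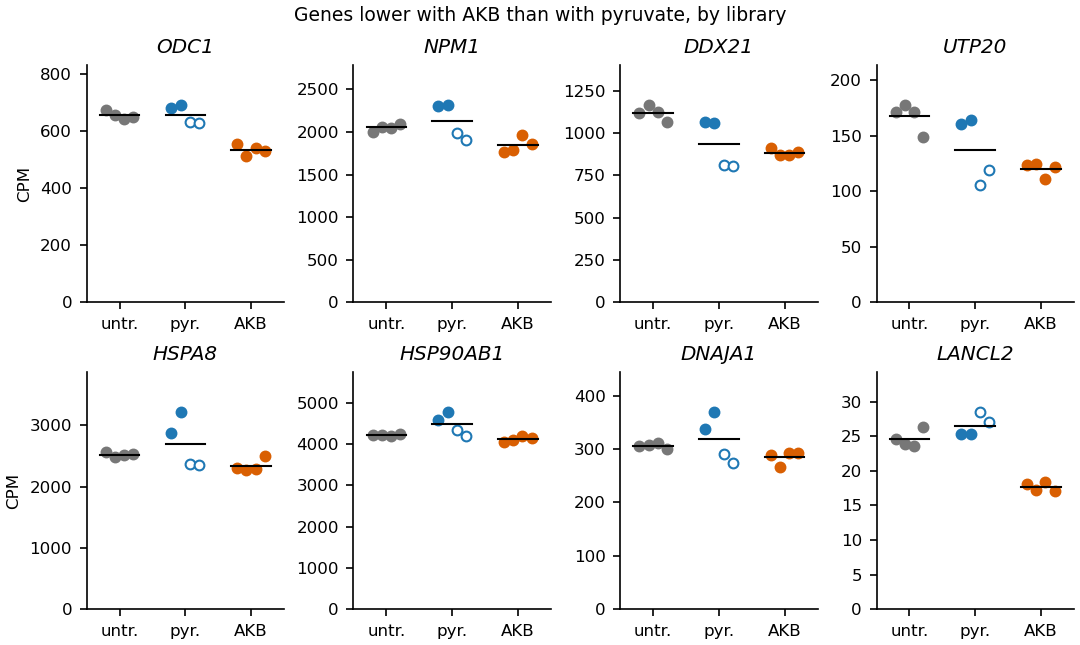
CPM of 8 genes that were held lower with AKB, in each untreated (grey), pyruvate (blue) and AKB (orange) library; open circles are pyruvate replicates 3 and 4 and bars are group means. ODC1 and LANCL2 separate AKB from all other libraries, whereas in the other 6 panels at least 1 of pyruvate replicates 3 and 4 lies within about the AKB range or below it.

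LANCL2 fell the most among the held genes named here, and the folds of the 12 largest falls were small. These 12 were chosen among genes whose AKB and pyruvate libraries did not overlap, so that separation adds no support for them. LANCL2, a lanthionine synthetase-like protein (chr7:55365448-55433742), was at 18.1, 17.3, 18.4 and 17.1 CPM with AKB, 25.3, 25.3, 28.6 and 27.02 CPM with pyruvate and 23.6 to 26.4 CPM in untreated cells. AKB was below every other library, and the log2 difference was -0.52 ± 0.07 (adjusted p = 0.00637), or 1.43-fold lower. UTP14A, a processome protein, was at 44.9, 48.8, 50.2 and 51 CPM against 61.9, 71.9, 70.6 and 69.6 CPM, and GPATCH4, a nucleolar G-patch protein, at 40.2, 45.9, 41.2 and 47.7 CPM against 54.4, 65.4, 74.9 and 69.6 CPM. ADI1, a dioxygenase of the methionine salvage pathway, was at 63.1, 56.3, 55.2 and 60.9 CPM against 76.6, 79.4, 74.2 and 71.9 CPM (adjusted p = 0.0104). NFYA, the sequence-specific subunit of the CCAAT-box factor NF-Y, was at 60.7, 61.1, 50.4 and 61.9 CPM against 72.3, 84.5, 62.2 and 63.3 CPM, where 1 AKB library was well below the other 3. The rest of the 12 largest were GTF3C6, a subunit of the RNA polymerase III factor TFIIIC, BRPF3 and KAT6B, which belong to histone acetyltransferase complexes, SPTBN1, a non-erythroid beta spectrin and the genes CCNE2, RRP9 and ODC1. GTF3C6, BRPF3, KAT6B and SPTBN1 were 1.28 to 1.36 times lower. Without pyruvate replicate 2 the adjusted p of LANCL2 was 0.0685 and that of the other genes of this paragraph bar ODC1 lay between 0.0658 and 0.396.

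A few genes of DNA replication were lower with AKB. Cyclin E drives entry into S phase, and of 53 genes listed for S phase entry and DNA replication 4 were held lower and 0 higher. That is 7.55% held, against 3.36% of all genes tested, and the median log2 difference was -0.08. CCNE2, cyclin E2, was at 16.5, 13.7, 15.6 and 13.3 CPM against 19.9, 20.9, 18.9 and 17.8 CPM without overlap, and RRM2, the small subunit of ribonucleotide reductase, was at 291, 275, 267 and 281 CPM against 331, 336, 301 and 286 CPM with a slight overlap. POLA1, the catalytic subunit of DNA polymerase alpha, was at 85.4, 84.2, 80.4 and 85.6 CPM against 104, 107, 77.8 and 90.4 CPM, and CLSPN, the checkpoint adaptor claspin, at 159.5, 173, 165 and 176 CPM against 198, 198, 171 and 175 CPM. In CLSPN pyruvate replicates 3 and 4 lay within the AKB range, and in POLA1 replicate 3 lay below it and replicate 4 above it. All but 1 of the 53 intervals were inside 1.5-fold, and without pyruvate replicate 2 0 of the 53 genes were held. Of 40 genes of G2 and mitosis, 70 nuclear respiratory chain subunits, 81 cytosolic ribosomal proteins and 13 mitochondrial mRNAs, 0 were held in either direction by the edgeR checks, against the same 3.36%. Over all 12 libraries without an offset their medians were 0.07, -0.17, -0.12 and -0.01, against 0.03 over all genes tested. There 0, 3, 1 and 0 were called lower and 0 higher. With the offset the medians were -0.002, -0.19, -0.11 and -0.06, against -0.002 over all genes tested. In the fit without pyruvate replicates 3 and 4 they were -0.05, -0.07, -0.05 and 0.04, and 28, 52, 52 and 4 estimates were below 0. In that fit 10, 14, 10 and 1 of these genes had an unadjusted p below 0.05, and DESeq2 called 4, 4, 1 and 0 and limma-voom 1, 0, 0 and 0, in the order given; over all genes tested in that fit 21.4% had such a p, DESeq2 called 8.6% and limma-voom 3.77%. Of 77 mitochondrial ribosomal proteins 2 were held lower, MRPL50 and MRPL3, or 2.6% against 3.36% of all genes tested. Their median was -0.11 over all libraries, -0.16 with the offset and -0.11 without pyruvate replicates 3 and 4. In the last of these fits 66 of the 77 estimates were below 0. AKB and pyruvate libraries did not overlap for 7 of the 77 downward and 0 upward, against 4.45% and 7.01% of all genes tested.

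Enzymes of lipid synthesis were higher with AKB in a few cases. Of 24 genes of fatty acid synthesis 3 were held higher and 0 lower, and of 31 genes of cholesterol synthesis and uptake 3 were held higher and 0 lower. The shares held were 12.5% and 9.68%, against 3.36% of all genes tested, and the medians were 0.09 and 0.07. ELOVL6, which elongates long-chain fatty acids (chr4:110045846-110199199), was at 239, 246, 236 and 250.1 CPM with AKB, 176, 177, 137 and 131 CPM with pyruvate and 172 to 186 CPM in untreated cells. AKB was above every other library and the log2 difference was 0.46 ± 0.04 (adjusted p = 0.00144). ACSS2, which makes acetyl-CoA from acetate, was at 129, 132, 122 and 145 CPM against 97.2, 113, 99.7 and 99.7 CPM, without overlap. MLXIPL, the glucose-sensing factor ChREBP, was at 10.03, 10.5, 11.01 and 9.20 CPM against 6.69, 6.25, 7.98 and 9.66 CPM and overlapped pyruvate replicate 4. HMGCS1, which makes the HMG-CoA used for cholesterol, was at 806, 705, 729.8 and 753 CPM against 571, 609.6, 423 and 415 CPM without overlap, and pyruvate replicates 3 and 4 were the lowest. APOE, described above, was another held member of the cholesterol list. FDFT1, squalene synthase, was at 40.4, 32.6, 28.2 and 21.2 CPM against 18.2, 18.3, 26.3 and 24.4 CPM and did not pass (adjusted p = 0.0567). ELOVL6 and APOE were the members of the 2 lists that were held without pyruvate replicate 2.

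Among 28 targets of NRF2, the factor that answers oxidative and electrophile stress, 4 were held higher and 0 lower. That is 14.3% held, against 3.36% of all genes tested, and the median log2 difference was 0.09. AKR1C3, an aldo-keto reductase that reduces carbonyl groups of steroids and other compounds, was at 20.6, 17.8, 20.6 and 17.9 CPM with AKB and 10.6, 11.4, 9.65 and 9.29 CPM with pyruvate. The groups did not overlap and the log2 difference was 0.80 ± 0.11 (adjusted p = 0.00621). Its close relatives AKR1C1, at 103, 89.3, 101 and 91.9 CPM against 78.5, 72.99, 73.7 and 69.4 CPM, and AKR1C2, at 47.3, 36.9, 45.4 and 39.5 CPM against 31.7, 31.4, 26.1 and 23.5 CPM, moved the same way, and reads can be split between these 2. FTL was the other member. NFE2L2, the gene for NRF2 itself, was at 112, 111, 111 and 104 CPM against 136, 123, 99.7 and 83.1 CPM and was not held. Without pyruvate replicates 3 and 4 its log2 difference was -0.24, the lowest of the 28. In that fit 4 of the 28 were called higher and 1 lower. Of 39 lysosomal genes 3 were held higher and 0 lower (7.69% held, against the same 3.36%): LAPTM5, PSAP, the saposin precursor, at 735, 755, 752 and 757 CPM against 677, 641, 679 and 672 CPM, and ASAH1, acid ceramidase, at 84.1, 71.8, 74.8 and 77.1 CPM against 63.2, 62.7, 48.03 and 45.6 CPM. None of the 3 overlapped. When pyruvate replicate 2 was left out, 0 of the NRF2 targets and 1 of the lysosomal genes, LAPTM5, were held, and AKR1C3 had an adjusted p of 0.0623.

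Among the enzymes and carriers that handle AKB and pyruvate directly, the lactate dehydrogenase and monocarboxylate carrier genes had 0 held differences. Over all genes tested 3.36% were held. Of 9 lactate dehydrogenase and monocarboxylate carrier genes tested, 0 were held; in the edgeR fit without pyruvate replicates 3 and 4, 0 were called, 2 had an unadjusted p below 0.05 (21.4% of all genes), and DESeq2 called 1 and limma-voom 1. LDHA, the muscle-type subunit, was at 997, 919, 934 and 969.6 CPM with AKB and 1067, 1091, 883 and 829 CPM with pyruvate (adjusted p = 0.0501), and LDHB, the heart-type subunit, at 782, 695, 741 and 753 CPM against 745, 818, 691 and 634 CPM (adjusted p = 0.501). Both overlapped. SLC16A1, which carries lactate and pyruvate across the plasma membrane, was at 377, 345, 329 and 322 CPM against 323, 345, 257 and 248 CPM, and MPC1, a subunit of the mitochondrial pyruvate carrier, at 140.2, 113, 106 and 123 CPM against 111, 135, 86.9 and 82.7 CPM. The 95% intervals of the log2 difference were -0.28 to -0.08 for LDHA, -0.20 to 0.05 for LDHB, -0.12 to 0.20 for SLC16A1 and -0.28 to 0.21 for MPC1, all inside 1.5-fold. MPC2, the other subunit of the mitochondrial pyruvate carrier, was not held, with a log2 difference of -0.17 without pyruvate replicates 3 and 4. In the authors' table it was lower with AKB (log2 fold change -0.427, DESeq2 adjusted p = 0.00954). There the DESeq2 adjusted p of SLC16A1, MPC1, LDHB and LDHA was 0.278 to 0.979.

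Of 27 genes that break down branched-chain 2-oxo acids and propionyl-CoA, the route by which AKB carbon would enter the citric acid cycle, 0 were held by the edgeR checks. Of all genes tested 3.36% were held. The interval lay inside 1.5-fold for 25 of the 27 and for 65.8% of all genes tested. Without pyruvate replicates 3 and 4, 7 of the 27 had an unadjusted p below 0.05 (21.4% of all genes), and DESeq2 called 0 and limma-voom 0. PCCA and PCCB, the subunits of propionyl-CoA carboxylase, were at 12.1, 13.5, 12.1 and 12.8 and 88.7, 84.6, 89.8 and 93.2 CPM with AKB and 11.5, 12.8, 10.8 and 11.9 and 88.5, 102, 101 and 103 CPM with pyruvate. MMUT, methylmalonyl-CoA mutase, was at 53.8, 51.6, 49.8 and 49.7 CPM against 46.4, 52.6, 36.4 and 36.8 CPM. Their intervals were -0.17 to 0.29, -0.24 to 0.04 and -0.12 to 0.22. BCKDHA, a subunit of the branched-chain dehydrogenase, was at 23.02, 22.97, 18.9 and 23.6 CPM with AKB, inside the range of 17.2, 18.7, 30.1 and 31.96 CPM with pyruvate, where replicates 3 and 4 were the highest. ACADSB, a short branched-chain acyl-CoA dehydrogenase, did not overlap, at 29.6, 30.9, 28.99 and 29.1 CPM against 25.7, 23.7, 22.3 and 21.9 CPM, and was called over all libraries (adjusted p = 0.0369) but in neither check (0.0816 and 0.214). HSD17B10, a mitochondrial dehydrogenase of isoleucine breakdown, was at 58.1, 61.1, 52.6 and 59.4 CPM against 60.5, 86.7, 95.2 and 91.4 CPM; it was called lower over all libraries (adjusted p = 0.0429) and with the offset (adjusted p = 0.0179) but not without pyruvate replicates 3 and 4 (adjusted p = 0.129), and pyruvate replicate 1 lay among the AKB libraries.

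Of the 36 genes of the pyruvate dehydrogenase complex and the citric acid cycle 3 were held higher and 2 lower. That is 13.9% held, against 3.36% of all genes tested, and the median log2 difference was -0.03. IDH2, the mitochondrial NADP-linked isocitrate dehydrogenase, was at 64.7, 69.7, 70.8 and 71.3 CPM against 48.6, 53.7, 64.9 and 59.9 CPM, above pyruvate replicates 1 and 2 and just overlapping replicate 3; its log2 difference was 0.43 ± 0.07 (adjusted p = 0.00967) and it stayed called without pyruvate replicate 2 (0.0454). PCK2, the mitochondrial phosphoenolpyruvate carboxykinase, was at 35.8, 40.9, 39.5 and 36.1 CPM against 28.3, 27.96, 40.8 and 43.5 CPM and overlapped replicates 3 and 4. PCK1, the cytosolic form, was near the limit of detection, at 1.41, 1.11, 0.820 and 1.852 CPM against 0.0592, 0.241, 0.455 and 0.560 CPM. IDH3A, a subunit of the NAD-linked isocitrate dehydrogenase, was held lower, at 102, 102, 100.3 and 107 CPM against 121, 132, 100.3 and 100.2 CPM. Its groups overlapped. Without pyruvate replicate 2 the adjusted p of PCK2, PCK1 and IDH3A was 0.0817, 0.164 and 0.197. PDHA1, the catalytic alpha subunit of pyruvate dehydrogenase, was at 166, 164, 163 and 176 CPM against 173, 209, 202 and 196 CPM (adjusted p = 0.135), and PDK1, a kinase that switches it off, at 30.7, 30.1, 28.8 and 33.2 CPM against 28.96, 28.3, 22.7 and 23 CPM (adjusted p = 0.441). In the authors' table PDHA1 was lower with AKB (log2 fold change -0.434, DESeq2 adjusted p = 0.00457), and the DESeq2 adjusted p of PDK1 was 0.585.

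Of 22 glycolytic genes 3 were held higher and 0 lower (13.6% held, against 3.36% of all genes tested). Their median log2 difference was -0.0050, and 13 of the 22 estimates were below 0. Over all 12 libraries 1 was called higher and 2 lower, against 1.94% and 1.19% of all genes tested. AKB and pyruvate libraries did not overlap for 3 genes upward and 5 downward, against 7.01% and 4.45% of all genes. The summed level of the list was 8787 to 9239 CPM with AKB and 9323 to 11368 CPM with pyruvate. ENO2, the neuronal enolase, was at 24.6, 22.9, 24.2 and 26.1 CPM with AKB and 13.9, 14.9, 17.4 and 16.1 CPM with pyruvate, with a log2 difference of 0.76 ± 0.09 (adjusted p = 0.00285). ENO3, the muscle enolase, was at 10.5, 13.8, 12.9 and 10.9 CPM against 7.05, 6.85, 9.55 and 10.4 CPM, and PFKFB4, which sets the level of fructose 2,6-bisphosphate, at 34.1, 32.3, 30.3 and 33.5 CPM against 23.7, 25.7, 30.1 and 29.7 CPM. None of the 3 overlapped, although pyruvate replicates 3 and 4 were the nearest to AKB in ENO3 and PFKFB4. Without pyruvate replicate 2 the adjusted p was 0.0365 for ENO2, 0.174 for ENO3 and 0.0845 for PFKFB4.

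**Figure D5:**
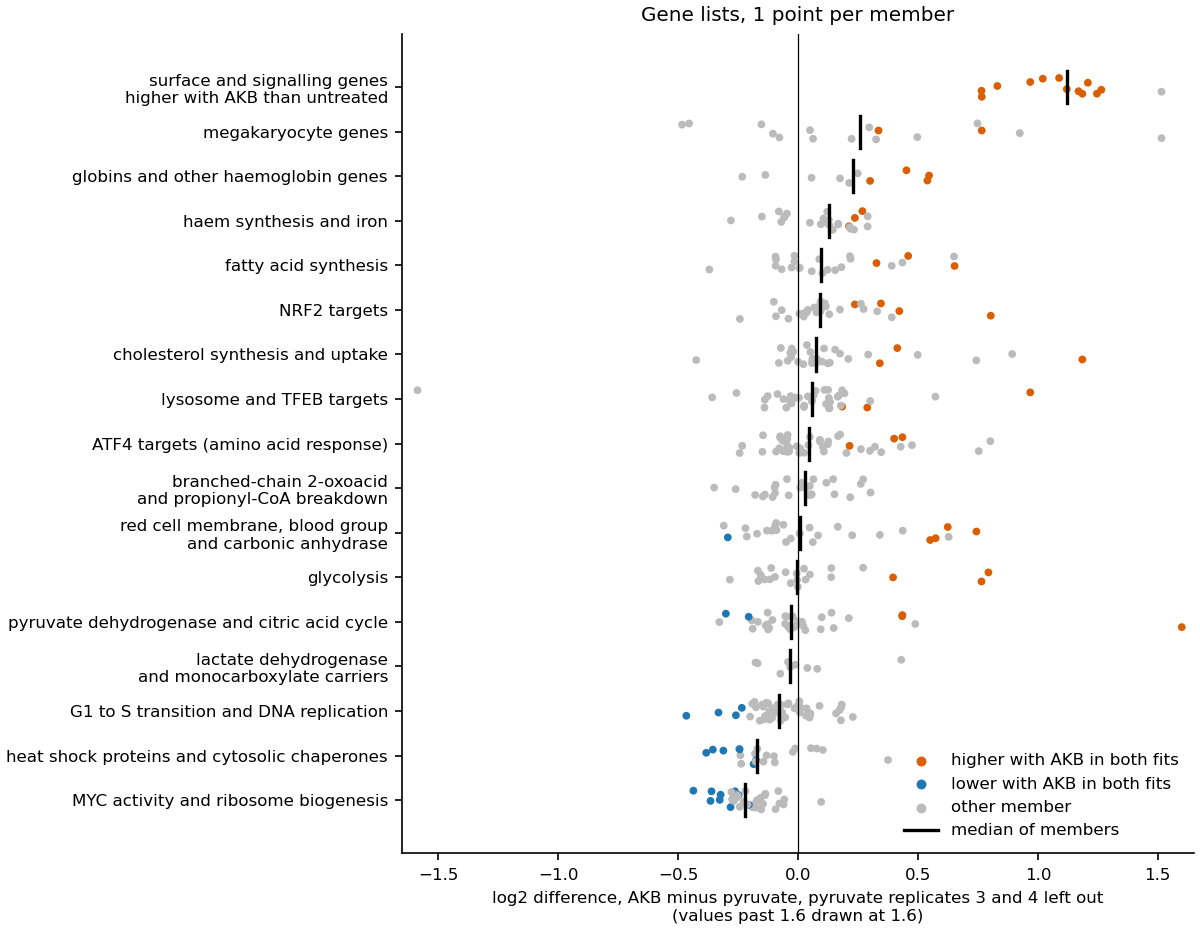
The log2 difference, AKB minus pyruvate, without pyruvate replicates 3 and 4, for each member of 17 gene lists (points), with held genes coloured and the median of each list as a bar. The surface list, chosen on the AKB libraries themselves, has the highest median, 1.12, and the ribosome biogenesis and chaperone lists the lowest, -0.22 and -0.17.

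ATF4 raises genes for amino acid synthesis and import when amino acids run short. Its targets ASNS and PSAT1 were lower with either acid than in untreated cells and were not held between the acids. ASNS, asparagine synthetase, was at 209, 204, 206 and 206 CPM with AKB and 184, 198, 147 and 147 CPM with pyruvate, against 350.5 to 416 CPM in untreated cells. PSAT1, of serine synthesis, was at 107, 99.9, 106 and 102 CPM against 97.6, 97.3, 82.8 and 75.9 CPM, with untreated cells at 196 to 213 CPM. Without pyruvate replicates 3 and 4, ASNS was below untreated cells by -0.90 with AKB (adjusted p = 6.72e-06) and -1.01 with pyruvate (adjusted p = 1.97e-05), and PSAT1 by -0.99 (adjusted p = 5.32e-07) and -1.08 (adjusted p = 3.12e-06). The log2 differences between the acids were 0.11 ± 0.06 (interval -0.03 to 0.24) and 0.09 ± 0.05 (interval -0.02 to 0.20). ATF4 itself was at 240.3, 247, 238 and 239 CPM against 230.1, 249, 282 and 276 CPM (interval -0.09 to 0.11), and DDIT4, an inhibitor of mTORC1 signalling, at 59.1, 64.6, 65.9 and 60.1 CPM against 65.7, 58.3, 114 and 110.1 CPM (interval -0.15 to 0.17), with DDIT4 higher in pyruvate replicates 3 and 4. Of 44 ATF4 targets, 3 were held higher and 0 lower (6.82% held, against 3.36% of all genes tested). The median was 0.05, and 34 of the 44 intervals lay inside 1.5-fold, as did 65.8% over all genes tested. The 3 held were ALDH1L2, a mitochondrial folate dehydrogenase, TRIB3, a pseudokinase, and PCK2. ALDH1L2 was at 23.7, 23.4, 25.3 and 22.1 CPM with AKB, 19.2, 16.6, 15.5 and 14.2 CPM with pyruvate and 34.2 to 39.8 CPM in untreated cells, so that both acid groups lay below untreated cells and pyruvate below AKB. TRIB3 was at 88.5, 91.5, 90.4 and 86.9 CPM against 78.9, 74.9, 91.1 and 93.2 CPM and overlapped replicates 3 and 4.

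Further targets and related genes were not held. PHGDH, the first enzyme of serine synthesis, was at 33.9, 37.1, 34.3 and 34.5 CPM against 30.1, 24.8, 37.9 and 32.99 CPM and was called without pyruvate replicates 3 and 4 (adjusted p = 0.0365) but not with the offset (adjusted p = 0.114). CTH, which makes cysteine and releases AKB from cystathionine, was at 19.7, 18.03, 18.7 and 21.4 CPM against 16.5, 15.03, 15.5 and 14.3 CPM, without overlap; its adjusted p was 0.094 without replicates 3 and 4. SLC7A11, the cystine importer, was at 65.1, 58.4, 61.6 and 56.99 CPM against 53.4, 47.4, 38.4 and 35.04 CPM, also without overlap (adjusted p = 0.105). CHAC1, which degrades glutathione, was at 1.99, 2.96, 3.46 and 4.51 CPM against 4.09, 3.07, 5.30 and 5.23 CPM and overlapped. GPT2, the mitochondrial alanine transaminase that interconverts pyruvate and alanine, was at 12.5, 10.6, 10.3 and 10.6 CPM against 7.40, 8.42, 8.89 and 9.38 CPM (adjusted p = 0.0805). TXNIP, a thioredoxin-binding protein induced by glucose, was at 131, 132, 118 and 128 CPM against 135, 139, 115 and 113 CPM (adjusted p = 0.252), and its relative ARRDC4 at 20.6, 21.99, 20.2 and 15.9 CPM against 24.7, 20.9, 22.02 and 18.5 CPM (adjusted p = 0.396). RUNX1, a blood transcription factor, was at 88.7, 88.1, 88.1 and 84.5 CPM against 88.7, 78.5, 71.7 and 77.8 CPM (adjusted p = 0.601). Of the 44 ATF4 targets, 0 were held without pyruvate replicate 2.

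For most genes the 2 acids could be placed close together. The 95% interval of the difference lay wholly inside 1.5-fold for 9173 of 13941 genes (65.8%) in the fit without pyruvate replicates 3 and 4, and 249 of the 469 held differences were among them. The interval lay wholly past 1.5-fold for 83 genes higher with AKB and 14 lower. These intervals were per gene and were not adjusted for the number of genes tested. In the same fit 1 of the 161 held lower genes differed by 1.5-fold or more, so most of the 14 were not held differences.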

How the data were processed

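Per the submitters' processing notes, Salmon 1.2.1, R 3.6.3 and DESeq2 1.26.0 were used; the genome build and annotation were not given in the sources used here. Per gene, the authors deposited estimated counts for 12 libraries (whole numbers, so rounding changed no value) and tables of their own comparisons, with a normalised mean signal per gene, log2 fold changes with standard errors, a test score, p-values and adjusted p-values; the AKB against pyruvate table was used here. Genes were filtered by group (filterByExpr, minimum count 10), scaled by TMM and tested with edgeR 4.0.16's quasi-likelihood test (glmQLFit, glmQLFTest), with all 3 groups sharing 1 estimate of the spread and Benjamini-Hochberg adjustment over all genes tested. GC content came from the longest GENCODE 29 transcript, matched for 95.9% of the tested genes; the offset was a lowess curve (span 0.3) per library. Symbols matched 90.3% of the identifiers. The totals of 15353200 to 21301073 counts set the precision of low genes. DESeq2 1.42.0 and limma-voom (limma 3.58.1) were alternatives, and the scripts were tested on simulated data.

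Held differences passed both checks. Named were the 12 largest held differences in each direction (at least 5 CPM, groups of 4 not overlapping), up to 4 members per list with the smallest adjusted p, the 5 largest calls not held in each direction, and 38 genes fixed by name; further held list members were named after their values were seen. Lists were described by counts, not tested. The comparison, lists and rules were chosen with earlier results of these data known. Replicate numbers did not pair the libraries: same-numbered AKB and pyruvate libraries deviated together with correlations of -0.068 to 0.234. No pair of libraries agreed within sampling noise. One pair of compounds was compared. The values of some held list members are not reported here.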

Additional observations from a re-analysis of the deposited data

Results flagged for a closer look

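The genes named by the rules above were looked at in each group of 4, and in 15 of 360 groups 1 library stood apart from the other 3, where chance alone gives about 1 in 20. Held list members named after their values were seen were not part of this count. EFNA1, one of those, was at 8.04 CPM in AKB replicate 1 against 5.43 to 5.68 CPM in the other AKB libraries. Among the globins, HBG1 was at 3366.61 CPM in AKB replicate 1 against 2828.8 to 2852.0 in the other 3, and HBG2 at 5844.2 CPM against 5078.4 to 5206.2. Among genes lower with AKB, DNAJA1 was at 267.1 CPM in AKB replicate 2, HSPA8 at 2497.9 CPM in AKB replicate 4 and NFYA at 50.4 CPM in AKB replicate 3. Among genes higher with AKB, PRG2 was at 28.5 CPM in AKB replicate 1, ACSS2 at 113.1 CPM in pyruvate replicate 2 and SLC25A37 at 345.3 CPM in untreated replicate 3. Among genes that were not held, BCKDHA was at 18.9 CPM in AKB replicate 3, GPT2 at 12.5 CPM in AKB replicate 1, RUNX1 at 84.5 CPM in AKB replicate 4, LDHA at 944.4 CPM in untreated replicate 4, PCCB at 88.5 CPM in pyruvate replicate 1 and VPS28 at 1.63 CPM in untreated replicate 4. ENSG00000283515 was at 0.0617 CPM in AKB replicate 4 and at 0 in the other AKB libraries.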

How the results depend on the processing

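Over all 12 libraries 264 genes were higher and 162 lower with AKB. Leaving out 1 library gave 61 to 922 higher and 7 to 1189 lower: 61 to 106 and 7 to 21 without an AKB library, 97 and 101 higher and 15 and 22 lower without pyruvate replicate 3 or 4, and 823 and 922 higher and 947 and 1189 lower without pyruvate replicate 1 or 2. Without pyruvate replicates 3 and 4 there were 257 lower. With the GC-content offset there were 993 and 1001, with an offset for GC content and length 1010 and 1004, with the offset and without pyruvate replicates 3 and 4 449 and 386, without a filter on low counts 145 and 69, by DESeq2's Wald test 636 and 891, and from the 8 AKB and pyruvate libraries alone 6 and 0 by edgeR, where 1380 had an unadjusted p below 0.05 in the lower direction and no other tool was run. With the replicate block the counts were 945 and 1022 with the offset, and 35 and 14 without pyruvate replicates 3 and 4; the numbers do not pair the libraries, since 1 of 4 pairs had a correlation above 0.1 and only number 3 correlated best with its own number. The held differences, 308 higher and 161 lower, became 31 and 9 under the replicate block, 112 and 23 from the AKB and pyruvate libraries alone, 510 and 543 as DESeq2's calls in the 1 fit without pyruvate replicates 3 and 4, and 380 and 259 with the offset in both fits. Leaving out 1 library gave 27 to 213 higher and 6 to 161 lower. The causes were not tested.

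Some named genes that were not called over all libraries changed sign. Without pyruvate replicates 3 and 4 the log2 difference was 0.0090 for ATF4, 0.30 for BCKDHA, 0.080 for BSG, 0.0094 for DDIT4, 0.056 for HBA2, -0.074 for LDHB, -0.15 for MCCC2, -0.033 for MPC1 and -0.11 for TXNIP. With the GC-content offset it was 0.0072 for ATF4, 0.027 for BCKDHA, 0.056 for BSG, -0.028 for MCCC2 and -0.061 for TXNIP, and with GC content and length 0.024, 0.041, 0.069, -0.033 and -0.064. With the offset and without pyruvate replicates 3 and 4 it was 0.21 for BCKDHA, -0.048 for LDHB, -0.12 for MCCC2 and -0.075 for TXNIP. Under the replicate block with the offset it was 0.0078 for ATF4, 0.030 for BCKDHA, 0.060 for BSG, -0.026 for MCCC2 and -0.062 for TXNIP; under the block without pyruvate replicates 3 and 4 it was 0.023, 0.32, 0.059, -0.12 and -0.069, and -0.072 for LDHB. NFE2L2 was at 0.0029 under the block and 0.019 by limma-voom. MCCC2 was at -0.0022 with DESeq2 size factors, -0.00079 by DESeq2's test and -0.0060 from the 8 libraries alone, where TXNIP was at -0.0018. Leaving out 1 library gave -0.026 to 0.10 for FTL, -0.016 to 0.20 for HBQ1, -0.11 to 0.059 for HSPH1, -0.099 to 0.045 for LDHA, -0.029 to 0.11 for LDHB, -0.059 to 0.081 for MCCC2, -0.14 to 0.10 for NFE2L2 and -0.043 to 0.072 for TXNIP; FTL, HBQ1 and HSPH1 were held differences and the others were not. HBZ, also held, was at -0.026 over all 12 libraries and 0.54 without pyruvate replicates 3 and 4.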
